A study of Mus musculus with 20 samples.

Results

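The change that mouse embryonic stem (ES) cells underwent between day 3 and day 4 of unbroken tamoxifen was read from 4 arrays, each with a green and a red channel, of a series of 20. The compared groups were Day4 Tmx++++ (tamoxifen on each of the 4 days, 2 arrays) and Day3 Tmx+++ (tamoxifen on each of the first 3 days, 2 arrays). These arrays were chosen by their labels, and every probe for mouse sequence was a candidate: 42006 probes of 60 bases, of which 29414 were bright enough to test. The cells were ES_ZERT #18, one clone of V6.5 ES cells from a C57BL/6 by 129/Sv hybrid background, with a Zscan4-ERT2 transgene under the pCAG promoter and a neomycin resistance gene. All groups carried both, and all were grown as a monolayer on gelatin in medium with serum and LIF, a cytokine that maintains ES cells. Tamoxifen was 200 nM. The other schedule used here gave tamoxifen on day 1 and plain medium after it, and was sampled as Day4 Tmx+--- and Day3 Tmx+-- (2 arrays each). Cells without tamoxifen were sampled on days 0, 1 and 2 only, so no untreated cells of day 3 or day 4 stand beside these. Each array set RNA of the cells (green) against a common reference (red), a pool of RNA from several mouse cell lines with ES cell RNA added. A level below is the log2 ratio of sample over reference.

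Zscan4 proteins carry a SCAN domain and zinc fingers. They are made in the early mouse embryo around the time its own genome becomes active, and in cultured ES cells they appear in brief bursts in a few cells at a time. Fusion to ERT2, a mutated oestrogen receptor domain that binds tamoxifen but not natural oestrogen, keeps a protein inactive until the drug is added. The pCAG promoter is active in most cell types. In a plate that is not passaged, cells also grow denser with each day, so day in culture and days of tamoxifen advance together in the continued groups and cannot be told apart there.

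Gene names are missing from the array files: all 42006 probes have only their own identifier. The ES cell identity and the transgene were therefore not checked against marker genes, and most probes below are named by identifier and sequence. The sequences are those that carry the largest changes: the 2 probes that rose most, the 2 that fell most, the sequence shared by a pair of falling probes, and 4 of the probes whose change differed most between schedules. They are written 5′ to 3′ as the array files give them, in lower case, with the letters AATAAA, the core of the polyadenylation signal, in capitals where present.
Z00075208-1, rose: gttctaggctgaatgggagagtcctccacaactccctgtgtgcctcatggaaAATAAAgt
Z00030602-1, rose: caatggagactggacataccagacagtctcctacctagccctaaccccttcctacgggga
Z00003769-1, fell: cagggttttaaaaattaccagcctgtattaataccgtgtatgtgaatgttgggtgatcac
Z00075179-1, fell: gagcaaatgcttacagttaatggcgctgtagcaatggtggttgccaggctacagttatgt
Z00062305-1 and Z00025860-1, fell: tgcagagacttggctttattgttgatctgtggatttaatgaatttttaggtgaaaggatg
Z00034203-1, higher under continued tamoxifen: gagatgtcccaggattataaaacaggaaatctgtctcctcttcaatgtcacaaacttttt
Z00055591-1, higher under continued tamoxifen: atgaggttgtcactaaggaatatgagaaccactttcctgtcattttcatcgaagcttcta
Z00015007-1, lower under continued tamoxifen: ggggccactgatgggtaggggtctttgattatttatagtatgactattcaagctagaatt
Z00055024-1, lower under continued tamoxifen: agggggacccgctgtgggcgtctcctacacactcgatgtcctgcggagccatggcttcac

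The change was broad and mostly small. Of the 29414 probes tested, 14156 (48.1%) passed a Benjamini-Hochberg adjusted p of 0.05 in limma: 8139 (27.7%) were higher on day 4 and 6017 (20.5%) were lower. The median size of a called change was 0.34 on the log2 scale, or 1.27-fold. At least 1.5-fold changes were called for 1455 probes upward and 996 downward. At least 2-fold changes were called for 233 probes upward (0.792%) and 133 downward (0.452%). These counts moved with the scaling and so did their order: 547 upward and 676 downward with Agilent's processed signals, 354 and 455 with the authors' series matrix values, and 111 and 284 after median centring. The central 95% of all changes lay between -0.64 and 0.75. The split of the calls depended on the scaling: 57.5% of them were higher after loess, 49.1% with Agilent's own processed signals and 40.9% after median centring, so no excess of rises over falls is given.

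Replicate arrays lay much closer to each other than the days did. The 2 day 4 arrays correlated at 0.9937 across the tested probes and the 2 day 3 arrays also at 0.9937, whereas day 4 and day 3 arrays correlated at 0.9282 to 0.9415. The SD of the difference between replicates over the probes was 0.104 on day 4 and 0.106 on day 3, and the SD of the day 4 minus day 3 change was 0.329. Both day 4 arrays fell outside the range of the day 3 arrays for 21987 probes (74.8%), and for 99.9% of the called ones. Nothing in the labels says that replicate arrays were hybridised with RNA of separate cultures. The p-values thus rest on the spread of arrays, and that spread can be technical only.

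Day 4 and day 3 lay on different slides, so slide and day cannot be told apart from the arrays of one schedule. The reference RNA was the same on every slide, so its channel shows differences between slides probe by probe. Single-channel signals were first quantile-normalized between arrays (given the same distribution), which removes shifts of a whole array. Effects of day or slide on the green channel alone do not appear in the red channel. In the reference channel alone 168 of the 29414 probes (0.571%) were called, 69 higher and 99 lower on the day 4 slide. Without the first day 4 array that number was 54. The SD of the change over probes was 0.337 in the sample channel alone, where 43.1% of probes were called, and 0.0998 in the reference channel. Of the 14156 called ratios, 11461 (81%) were also called in the same direction in the sample channel, and 118 were called in the reference channel. Among the 366 probes with a called change of at least 2-fold, 365 were called in the same direction in the sample channel and 19 were called in the reference channel. The share of reference-channel calls was thus higher among these 366 than the 0.571% over all tested probes.

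**Figure D1:**
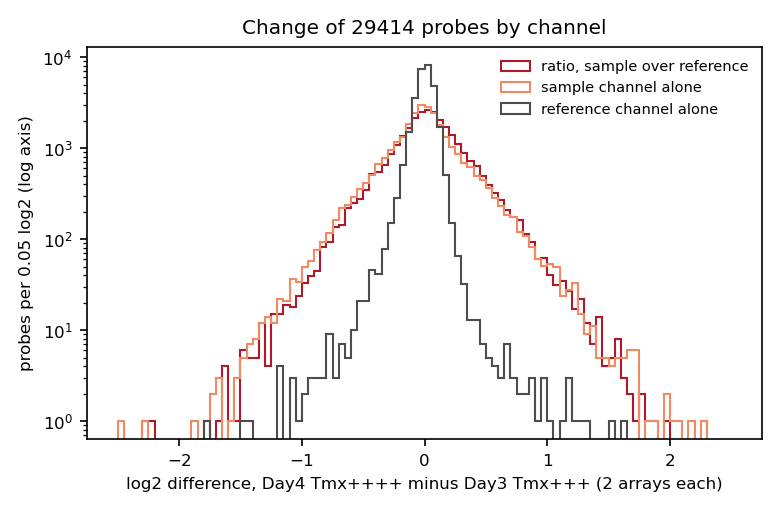
Distribution over 29414 probes of the log2 difference between the Day4 Tmx++++ and Day3 Tmx+++ arrays (2 each) for the ratio, the sample channel alone and the reference channel alone; the vertical axis counts probes per bin on a log scale. The sample channel (SD 0.337) is wider than the reference channel (SD 0.0998).

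The largest rise was at Z00075208-1. Its level was 1.03 and 1.33 on the day 4 arrays, against -0.77 and -0.81 on the day 3 arrays. The groups were far apart, and the change of 1.97 ± 0.11 (SE) was 3.92-fold (limma, adjusted p = 6.9e-10). Its reference channel differed by 0.11. In the other groups its level lay between -1.44 and -0.77 from day 0 to day 3, and it was 1.04 ± 0.16 (SD, n = 2) on day 4 in cells withdrawn from tamoxifen.

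Z00030602-1 followed with 1.54 and 1.32 on the day 4 arrays, against -0.79 and -0.09 on the day 3 arrays. The change was 1.87 ± 0.21 (SE), with an adjusted p of 2.3e-06 in limma. Its course was unlike that of the first probe. It stood at 1.76 on day 0 and between 1.39 and 1.83 on days 1 and 2, so that in continued cells the day 3 arrays were the low ones. In withdrawn cells the probe was at -0.74 on day 3, where the first array had no value. On day 4 it was at 0.29 ± 0.12 (SD, n = 2) there, also below days 1 and 2. Its reference channel was also 0.64 higher on the day 4 arrays (adjusted p = 0.056), outside the central 95% of reference-channel differences (-0.196 to 0.155), and the part of this in the ratio was not tested.

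The largest fall was at Z00003769-1, with -0.15 and -0.55 on the day 4 arrays, against 1.86 and 2.01 on the day 3 arrays. The difference of -2.28 ± 0.13 (SE) was 4.87-fold (limma, adjusted p = 1.4e-09). This probe had its highest levels on day 1, at 2.87 with and 2.81 without tamoxifen, and stayed between 1.81 and 2.03 on days 2 and 3. Z00075179-1 stood at -2.20 and -2.49 on the day 4 arrays, against -0.19 and -0.03 on the day 3 arrays, a change of -2.24 ± 0.11 (SE; limma, adjusted p = 2.8e-10). It too was highest on day 1, at 1.62 with and 1.53 without tamoxifen, and its level in withdrawn cells on day 4 was -2.07 ± 0.09 (SD, n = 2).

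Probes that share sequence can be set against each other. Z00062305-1 and Z00025860-1 hold the same 60 bases and lie at different spots. The first read -0.55 and -0.52 on day 4 arrays, against 1.04 and 1.1 on day 3 arrays, and its change was -1.60. The second read -0.46 and -0.65, against 0.93 and 0.96, and its change was -1.50. With Agilent's processed signals, which have no offset, the changes were -3.30 and -3.03. Over the 18 sequences that more than 1 tested probe carried, the median range of the log2 change among the copies was 0.067 and the largest was 0.3; in 13 of the 18 all copies fell in the same call class. Among 672 pairs of different probes that overlap by at least 20 bases, both members were called in 325, and all 325 pairs had the same direction. In 106 pairs 1 member was called and the other was not, 12 of them with opposite signs, and in 241 neither was. The median difference between the members was 0.049 over all pairs.

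The probes with the largest called changes moved late. For the 233 probes that were at least 2-fold higher on day 4, the median level was -0.86 on day 0, -1.43 on day 1, -0.82 on day 2, -0.66 on day 3 and 0.50 on day 4 of continued tamoxifen. For the 133 that were at least 2-fold lower, it was 0.75, 1.34, 0.75, 0.65 and -0.54 on the same days. These probes were chosen for the last step of that course, so that step is a description, whereas the levels of days 0 to 2 come from arrays outside that contrast. In 218 of the 233 rising probes the day 4 level was above all 8 group means of days 0 to 3, and in 128 of the 133 falling probes it was below all 8. Over all tested probes 9630 had a day 4 level above all 8 and 7076 a level below all 8.

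On day 1 both sets stood on the other side of their day 0 level. With tamoxifen on day 1, 17 of the 233 rising probes and 115 of the 133 falling probes were above day 0. Without tamoxifen on day 1, 31 of the 233 (13.3%) and 118 of the 133 (88.7%) were above it, against 48.3% of all tested probes. The day 0 and day 1 levels are not part of the contrast that chose these probes, although those arrays entered the filter and the estimate of the spread.

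**Figure D2:**
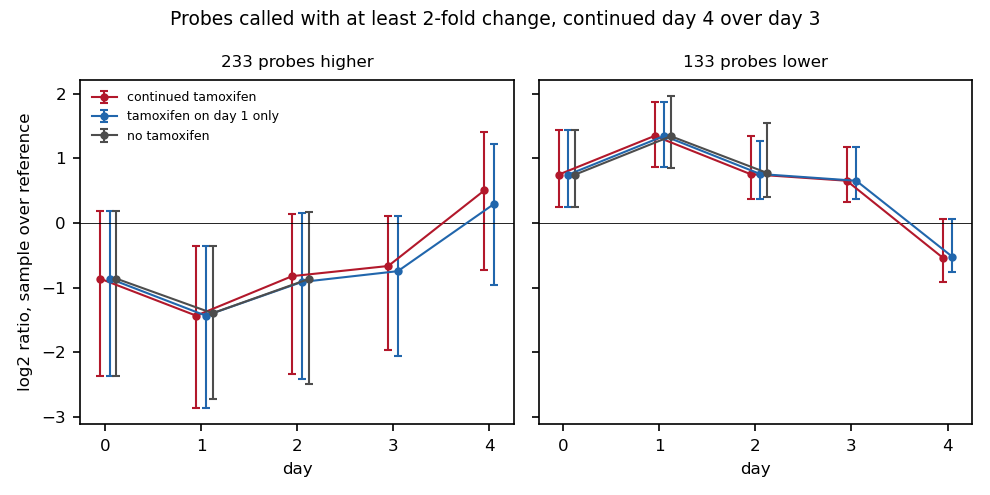
Median log2 ratio of sample over reference by day for the 233 probes at least 2-fold higher and the 133 at least 2-fold lower on day 4 than on day 3 of continued tamoxifen; bars span the quartiles over probes, and lines are the 3 schedules. In both panels the medians of continued and withdrawn cells lie close together on days 3 and 4.

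Cells withdrawn from tamoxifen after day 1 lay on the same pair of slides and changed much as the continued cells did. In the withdrawn cells 14489 probes (49.3%) were called between day 4 and day 3, with 8433 (28.7%) higher and 6056 (20.6%) lower. Of the calls, 6749 were higher in both schedules and 4916 were lower in both. These 11665 probes made up 82.4% of the calls under continued tamoxifen and 80.5% of the calls after withdrawal. Opposite calls were made for 35 probes. No array is in both comparisons, but both contrast the same 2 slides, so a shift of a slide would be shared. Of the 233 probes at least 2-fold higher under continued tamoxifen, 224 were called higher after withdrawal, with a median change of 1.17 in continued and 1.14 in withdrawn cells. All 133 at least 2-fold lower were called lower, with a median of -1.17 in both.

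A whole-slide shift cancels in the difference between the 2 changes. That difference (the continued change minus the withdrawn change) was called for 230 probes (0.782%): 27 were higher under continued tamoxifen (0.0918%) and 203 lower (0.69%). The count leaned on single arrays: it was 99 without the first Day3 Tmx+-- array, 124 without the second Day4 Tmx+--- array and 143 without the first Day4 Tmx++++ array. Over the 8 arrays left out in turn the higher count ran from 5, without the first Day3 Tmx+-- array, to 46, without the second Day3 Tmx+++ array, and the lower count from 94 to 161. With local backgrounds as given, which differ only on the first untreated day 1 array, the counts were 1 and 33. The reference channel gave 0 such calls in limma. At an unadjusted p under 0.05 it gave 1046 of 29414 probes, against 2492 for the ratio. In the 203 probes the median change was -0.01 in continued cells and 0.56 in withdrawn cells, and 159 were called higher after withdrawal. Of the 366 probes with at least 2-fold changes, 8 were among the 230. That share was higher than the 0.782% over all tested probes. The continued change enters both choices of probes.

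**Figure D3:**
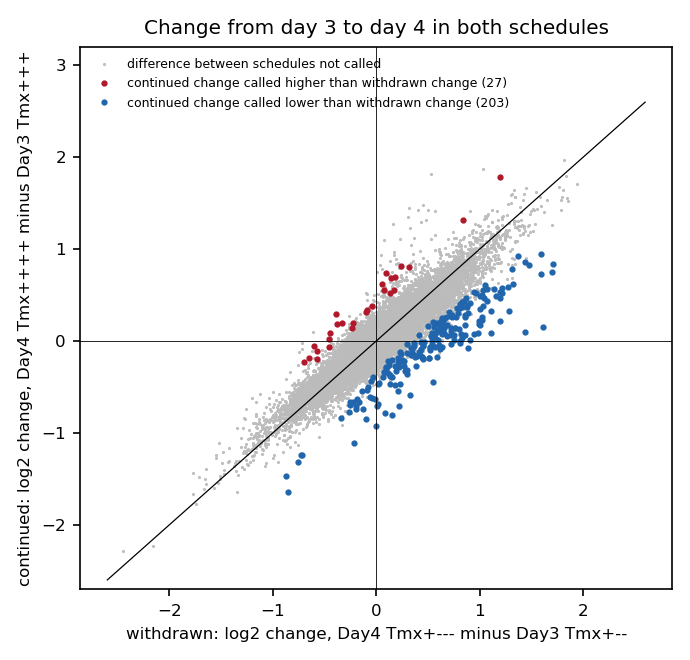
Each point is a probe; the vertical axis is its log2 change, Day4 Tmx++++ minus Day3 Tmx+++, and the horizontal axis its log2 change, Day4 Tmx+--- minus Day3 Tmx+--, with the line of equal change. The 27 probes with a higher continued change and the 203 with a lower one are coloured.

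The probes with a lower continued change were largely those already lower with tamoxifen on days 1 and 2. On day 1 tamoxifen over untreated cells called 5508 probes (18.7%) and on day 2 it called 7340 (25%). Both days called 1846 probes lower (6.28% of those tested) and 1722 higher (5.85%). On each of these days the treated and untreated arrays lay on different slides, so tamoxifen and slide cannot be told apart there. Of the 203 probes, 179 (88.2%) were in the lowered class, which is 9.7% of that class. Of the 27 probes with a higher continued change, 15 (55.6%) were in the raised class, which is 0.871% of it. The day 1 and day 2 arrays share none with the comparison of schedules, although all 20 arrays entered the filter and the estimate of the spread. With Agilent's processed signals 118 of 129 were in the lowered class and 8 of 14 in the raised class. With median centring it was 182 of 206 and 5 of 18.

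In the 203 probes the median level was -0.85 on day 1 and -0.95 on day 2 of tamoxifen, -0.90 on day 3 and -0.99 on day 4 when it was continued. After withdrawal it was -0.92 on day 2, -0.63 on day 3 and -0.20 on day 4, while untreated cells stood at -0.19 on day 1 and 0.03 on day 2. Continued cells were above the untreated day 2 level in 27 of the 203 probes on day 4 and in 22 on day 3. Withdrawn cells were above it in 94 on day 4 and in 25 on day 3. In the 27 probes the median was 0.55 on day 2, 0.27 on day 3 and 0.77 on day 4 of continued tamoxifen, and was 0.10 and 0.18 on those days after withdrawal. Levels of days 3 and 4 are those by which the probes were chosen.

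**Figure D4:**
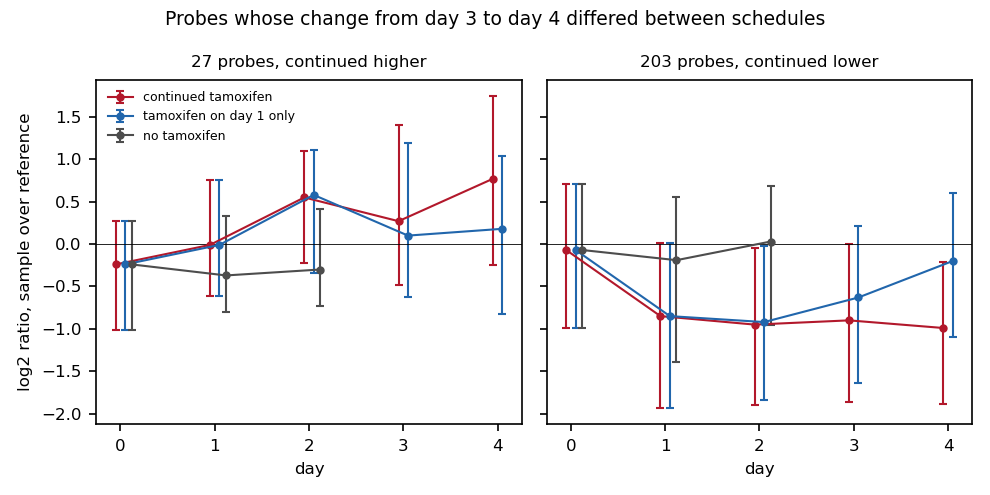
Median log2 ratio of sample over reference by day and schedule for the 27 and the 203 probes whose change from day 3 to day 4 differed between schedules; bars span the quartiles over probes. In the 203 probes the continued median is -0.99 on day 4 and the withdrawn median is -0.20.

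Z00015007-1 had the largest such difference among probes above background on all 8 arrays of days 3 and 4. It stood at -0.55 and -0.52 on the day 4 arrays, against -0.65 and -0.73 on the day 3 arrays of continued cells. In withdrawn cells it was 1.62 ± 0.03 (SD, n = 2) on day 4 and 0.01 ± 0.01 on day 3. The difference was -1.46 (limma, adjusted p = 1.1e-05), and the continued change itself was not called (adjusted p = 0.14). In untreated cells the probe stood at 0.89 on day 1 and 1.40 on day 2. With tamoxifen it was at -0.96 on day 1.

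Z00055024-1 behaved alike, with -0.43 ± 0.03 on day 4 and -0.54 ± 0.06 on day 3 of continued tamoxifen, and with 1.42 ± 0.05 and -0.01 ± 0.05 after withdrawal (SD, n = 2 each). Its difference between schedules was -1.33 (limma, adjusted p = 1.3e-06). Z00046616-1 was at -2.78 ± 0.07 on day 4 and -2.86 ± 0.02 on day 3 of continued tamoxifen, and at -1.61 ± 0.01 and -2.72 ± 0.08 after withdrawal. It had been at -0.92 on day 1 and -0.85 on day 2 in untreated cells, and its difference was -1.03 (limma, adjusted p = 0.00027).

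In the other direction Z00034203-1 was at 1.33 ± 0.05 on day 4 and 1.03 ± 0.04 on day 3 of continued tamoxifen, against 0.38 ± 0.06 and 0.76 ± 0.07 after withdrawal. The difference was 0.68 (limma, adjusted p = 0.0012), and the probe had been 0.94 higher with tamoxifen than without on day 2. Z00055591-1 was at 2.87 ± 0.07 and 2.13 ± 0.14 in continued cells, against 2.07 ± 0.02 and 1.97 ± 0.13 in withdrawn cells, with a difference of 0.65 (limma, adjusted p = 0.0044). Z00019902-1 differed between tamoxifen and untreated cells by -0.28 on day 1 and by -0.04 on day 2. It reached 0.41 and 0.61 on the continued day 4 arrays, against -1.34 and -1.2 on the day 3 arrays, a rise of 1.78. It rose by 1.2 in withdrawn cells (difference 0.58, limma, adjusted p = 0.0067). These 6 probes were singled out after their values were seen.

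The probes called in the same direction with tamoxifen on days 1 and 2 changed in both directions late. Of the 1722 probes raised on both days 1 and 2, 628 (36.5%) were higher on day 4 and 509 (29.6%) lower, with a median change of 0.02. Of the 1846 lowered, 594 (32.2%) were higher and 544 (29.5%) lower, with a median of 0.00. All tested probes had 27.7% higher, 20.5% lower and a median of 0.03. After median centring more were lower than higher in both classes: 376 (21.8%) higher and 682 (39.6%) lower of the raised, and 388 (21%) and 696 (37.7%) of the lowered, with 19.4% and 28% over all tested probes. With Agilent's processed signals the shares were 28.7% and 31.8% of the raised, and 28.8% and 34.3% of the lowered. After withdrawal 667 of the 1722 were lower and 479 higher, and 912 of the 1846 were higher and 344 lower.

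Probes that were dim in ES cells relative to the pooled reference on day 0 were more often higher on day 4. Of 3537 probes with a level under -1 on both day 0 arrays, 1732 (49%) were called higher and 307 (8.68%) lower, with a median change of 0.17. Of 1839 probes with a level over 1 on both, 522 (28.4%) were higher and 687 (37.4%) lower, with a median of -0.05. Under median centring these shares were 31.7% higher and 16.3% lower in the first class, and 20.4% higher and 46.2% lower in the second. There all tested probes gave 19.4% higher and 28% lower. After loess, the withdrawn cells had 1701 higher and 386 lower of the 3537 probes. Of the 1839 probes they had 599 higher and 606 lower, with a median change of 0.02, so the excess of falls in that class was not shared.

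Falling probes were poorer in G and C. Their median G+C content was 41.7%, that of rising probes 45% and that of all tested probes 45%. Of the 4473 probes at or under 35% G+C, 23.3% were called higher and 31.3% lower. Of the 7509 over 50%, 28.3% were higher and 10.7% lower. The order was alike with Agilent's processed signals (18.4% and 35.1% against 23.2% and 13%) and after median centring (15.1% and 41.1% against 20.7% and 15.8%). The median change in the reference channel was 0.0027 in probes at or under 35%, and between -0.011 and 0.0098 in the other ranges of G+C.

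The letters AATAAA were present in 35 of the 233 probes at least 2-fold higher (15%), in 14 of the 133 at least 2-fold lower (10.5%) and in 2207 of all tested (7.5%). TTTATT, the same motif on the other strand, was present in 3.86%, 4.51% and 3.06% of these sets. Both motifs were searched on the strand as spotted, and a probe may hold both.

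Some probes crossed the detection limit. In the sample channel 211 probes were well above background on both day 4 arrays and on neither day 3 array, and 78 of them were called higher. In reverse, 237 were well above background on both day 3 arrays and on neither day 4 array, and 101 were called lower. Over all tested probes 27.7% were called higher and 20.5% lower. The same 4 arrays gave detection and calls, so the direction of the calls in these probes was largely set by the choice. For such probes the sample-channel signal supports only a bound, taken from normalized signals against the dimmest one still above background. This bound is on the sample signal and not on the ratio to the reference. Among the 78, it reached 1.5-fold in 7. The sample signal of Z00046337-1 averaged 7.14 on day 4 and 6.10 on day 3 (log2), at least 2.06-fold higher, and its ratio changed by 0.90 on the log2 scale (limma, adjusted p = 3.2e-05). Among the 101, the bound reached 1.5-fold in 1, Z00031374-1, with a mean signal of 6.16 on day 4 and 6.77 on day 3. Its signal was at least 1.5-fold lower, and its ratio changed by -0.65 (limma, adjusted p = 9.3e-07). Both were chosen after their values were seen. The 4 probes with the largest changes were above background on all 4 arrays.

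A few probes could be given a gene. All 60 bases were matched exactly to RefSeq windows around gene starts (GRCm38.p6), which placed 267 of the 42006 probes, and 130 of them lay wholly inside the interval of a single gene on its strand. Copies elsewhere in the genome and the exon structure were not checked. Of these, 96 were tested and 42 were called (43.8%, against 48.1% of all tested probes), with 27 higher and 15 lower. None was among the 230 probes (0.782% of those tested) that differed between schedules. An unadjusted p under 0.05 there was found for 6 of the 96, and for 2492 of all 29414 tested. None of the 492 genes of the pathway and cell type lists was among the placed ones, so no list could be counted. The 26 genes with higher probes and 13 with lower ones that met the criteria for naming are described next. Of their 41 probes, 15 lay within 300 bases of the 5′ end of the gene interval and 13 within 300 bases of its 3′ end. Whether the probes lie in the mature mRNA was not checked.

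Zmynd10, an assembly factor for the dynein arms of motile cilia, rose most among them. Its probe (chr9:107550975-107551034, plus strand, 287 bases from the 3′ end of the gene interval) read 1.33 and 1.42 on the day 4 arrays, against 0.11 and 0.10 on the day 3 arrays. The change was 1.27 ± 0.08 (SE; limma, adjusted p = 3.4e-09). In withdrawn cells it changed by 1.70, and the difference between schedules was not called (-0.44, adjusted p = 0.11). Levels of this probe earlier were 0.27 on day 0, -0.55 on day 1 and 0.15 on day 2 of tamoxifen.

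Tmc4, of the transmembrane channel-like family, rose next. Its probe (chr7:3665794-3665853, minus strand, 40 bases from the 3′ end) read 1.03 and 1.05 on day 4 arrays, against 0.13 and 0.16 on day 3 arrays, a change of 0.89 ± 0.07 (SE; limma, adjusted p = 1.6e-08). It changed by 0.78 in withdrawn cells. Ccdc33, a coiled-coil protein gene, read 0.52 and 0.34 on day 4, against -0.06 and -0.10 on day 3 (chr9:58102179-58102238, 73506 bases from the 3′ end). It changed by 0.51 in continued and by -0.09 in withdrawn cells, a difference that was not called (adjusted p = 0.27). Its call was lost without the first day 4 array.

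Other rises were smaller. Renbp, the renin-binding protein, which interconverts amino sugars, read 0.59 and 0.64 on day 4, against 0.18 and 0.15 on day 3 (chrX:73922122-73922181, at the 3′ end). Camta2, a calmodulin-binding transcription activator, changed by 0.45 (chr11:70669582-70669641). Sympk encodes symplekin, the scaffold of the machinery that cleaves and polyadenylates mRNA. It has 2 probes near its 3′ end, which changed by 0.39 and 0.41. Pcif1, which methylates the cap-adjacent adenosine of mRNA, changed by 0.30, and Trmt112, an activator of several methyltransferases, by 0.35. Renbp, both Sympk probes, Pcif1, Gm14321 and Mapkbp1 were not called after median centring.

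The rest of the 14 largest rises were at Gm1673 (0.45), the noncoding Appbp2os (0.34), Gm14321 (0.33) and Gm45914 (0.30), Mapkbp1 (0.27) and the histone gene H4c8 (0.28). H4c8 belongs to a family of near-identical genes, and a second probe in it was not called (0.05, adjusted p = 0.66). The calls of Gm14321, Gm45914, H4c8 and Mapkbp1 were lost without the second day 4 array. That of Gm14321 was also lost without the second day 3 array, and those of H4c8 and Mapkbp1 without the first. The other 12 genes with higher probes changed by 0.14 to 0.27. They included Ccdc114 (0.24), which anchors outer dynein arms, and Unc13a (0.25), which primes synaptic vesicles for release and whose call was lost without the second day 4 array. Ccdc114 was not called after median centring or in the sample channel alone, where it changed by 0.07, and its reference channel differed by -0.12. The others were Lemd3 (0.23), Mff (0.22), Abhd6 (0.20), and the noncoding Gm11423 (0.27), Gm36608 (0.23), Gm33355 (0.22) and Gm9828 (0.20). Each of these 7 lost its call under at least 2 of the alternatives tried, and Gm36608 kept it in 5 of 13. Nabp2 (0.23), Ciao2b (0.22) and Cdc42bpa (0.14) changed sign after median centring.

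Rpl38, a protein of the large ribosomal subunit, had the largest fall at one of its 2 probes. The brighter probe in the sample channel (chr11:114668538-114668597, plus strand, 720 bases into the gene interval) read 0.81 and 0.73 on day 4 arrays, against 1.2 and 1.14 on day 3 arrays. Its change was -0.40 ± 0.06 (SE; limma, adjusted p = 2.2e-05). The other, which starts 12 bases upstream, changed by -0.73. In withdrawn cells they changed by -0.38 and -0.64. Both had been higher with tamoxifen on day 2, by 0.32 and 0.41. Ribosomal protein genes have processed copies in the genome, which these probes may also detect.

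Zbtb8a, a zinc finger gene with a BTB domain, read -0.22 and -0.21 on day 4, against 0.35 and 0.34 on day 3 (chr4:129354034-129354093), and its change was -0.56 ± 0.07 (SE; limma, adjusted p = 4.7e-06). Zbtb22, also a BTB zinc finger gene, changed by -0.54 (chr17:33919254-33919313, at the 3′ end) and by -0.75 in withdrawn cells. Zfp512b, another zinc finger gene, changed by -0.37, and Ppp2r3c, a regulatory subunit of protein phosphatase 2A, by -0.42, or by -1.23 with Agilent's processed signals.

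The remaining falls were slight. Rab7, a GTPase of late endosomes, changed by -0.26, D8Ertd738e by -0.24, the noncoding Arhgap27os3 by -0.33 and Bcl11a, a transcriptional repressor known from globin switching, by -0.23. Adk, or adenosine kinase, changed by -0.23, Stard13 by -0.22, Gtf2h4, a TFIIH subunit, by -0.18 and Ndufa11, a subunit of respiratory complex I, by -0.17. The probes of Rab7, Adk and Stard13 lay 46006, 395883 and 330933 bases from the 3′ ends of their gene intervals. The calls of Adk, Stard13 and Ndufa11 were lost when any 1 of the 4 arrays was left out. Those of Arhgap27os3, Bcl11a and Gtf2h4 were lost without the second day 4 array. They were also lost without the first day 3 array for Arhgap27os3 and without the second for the other two. With local backgrounds as given, Ccdc33, Gm14321, Gm45914, H4c8, Rab7, Bcl11a, Adk and Ndufa11 were not called, and in the sample channel alone Gm14321, Mapkbp1 and Stard13 were not. The calls of 9 of the 14 rising and 7 of the 13 falling genes held with each of the 4 arrays left out.

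**Figure D5:**
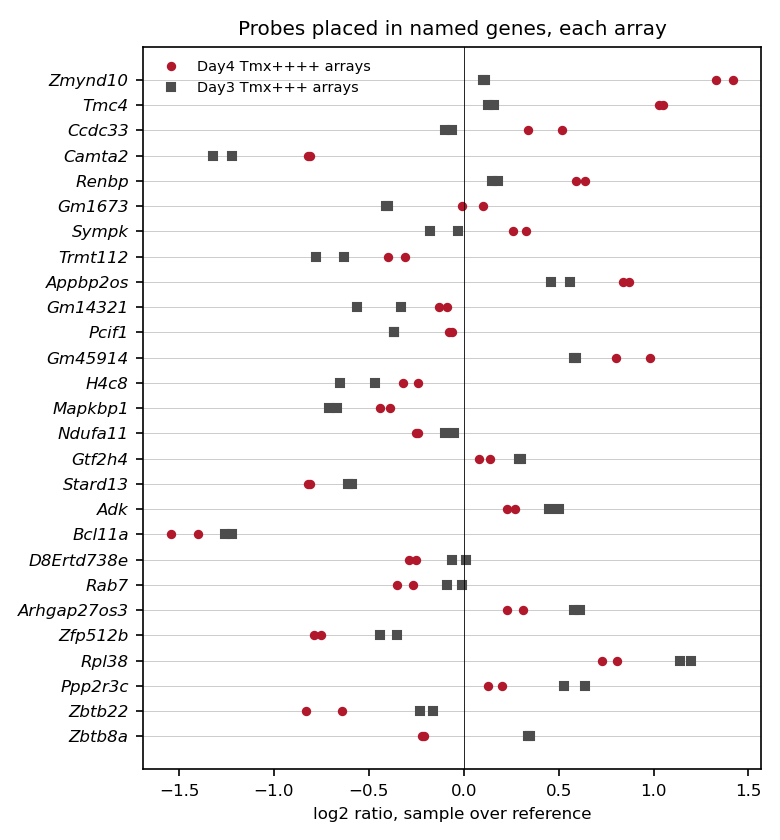
Log2 ratio of sample over reference on each Day4 Tmx++++ array (circles) and each Day3 Tmx+++ array (squares) for 1 probe in each of 27 named genes, 14 with rises and 13 with falls, ordered by change. The day 4 and day 3 arrays do not overlap for any of them, which the choice of probes required.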

How the data were processed

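The authors deposited spot intensity values (mean signals, local backgrounds, processed signals) and flags. Per the file headers the software was Agilent Feature Extraction, version 9.5.1.1. The authors' deposited series matrix holds log10 values that track the processed sample signal. Their scaling is not given in the sources. Per the labels the cells' RNA was Cy3 and the reference Cy5 on all arrays, with no dye swap.

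Background correction by normexp with an offset of 50 and within-array loess were run on mean signals in limma 3.58.1 (R 4.3.3). Backgrounds over 10 times the channel median (12, on the first untreated day 1 array) were replaced by it, and spots marked as non-uniform were dropped (91 values among tested probes). Control spots were used in normexp only and got weight 0 in loess. Spots of a probe were averaged. Single-channel signals were background-corrected in the same way and quantile-normalized between arrays, without loess. Tested probes had to be well above background on each array of some group. One group-means model over 20 arrays (prior df 6.94) gave all tests, at a Benjamini-Hochberg adjusted p of 0.05. On data simulated for this comparison, 200 of 29414 probes were changed. The model called 62% of 1.25-fold and 100% of 1.5-fold changes, with 19 of the unchanged probes called. In the data 14156 probes were called. The cut-off on the unadjusted p was therefore looser there, and neither these rates nor the 19 carry over. The simulated noise was independent between arrays and held no slide effect, so these rates do not cover differences between slides. Folds include the offset, which understates dim probes, and 2 arrays a group limit the precision. Between 27791 and 29301 of 42006 probes were well above background on the 4 arrays.

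Named genes are the 14 largest called rises and falls (13 falls qualified) with arrays apart, signal above background on all 4 arrays and the same direction in the sample channel. For genes with several probes the brighter stands. The 2 largest changes each way are added whatever their name. Comparisons, lists and classes were chosen with earlier results of these data known. Replicate numbers did not pair arrays: differences between replicates 1 and 2 correlated at -0.0056 between the day 4 and day 3 groups. Alternatives were other corrections, scalings, filters and fits, and each array left out.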

Additional observations from a re-analysis of the deposited data

Results flagged for a closer look

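The change from day 3 to day 4 differed between continued and withdrawn tamoxifen for 230 probes by a test of the difference itself. Among the probes named above, the continued change was higher than the withdrawn change by 0.68 at Z00034203-1, by 0.65 at Z00055591-1 and by 0.58 at Z00019902-1 on the log2 scale. The continued minus withdrawn difference was -1.46 at Z00015007-1, -1.33 at Z00055024-1 and -1.03 at Z00046616-1. Groups of 2 arrays were too small to tell which array of a group was an outlying one. The number of such probes leaned on single arrays when these were left out in turn, as given above.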

How the results depend on the processing

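The number of probes called higher under continued tamoxifen, 8139, was 5303 with local backgrounds as given and 4709 with the authors' series matrix values (18098 probes). Calls of at least 2-fold, 233 higher and 133 lower, were 547 and 676 with Agilent's processed signals, 354 and 455 with the series matrix, and 111 and 284 with median centring. The 230 probes that differed between schedules were 143, 34 and 149 with Agilent's processed signals, backgrounds as given and the series matrix. Withdrawn rises, 8433, were 4929 with the series matrix. Fewer probes entered the series matrix fit. Backgrounds as given differed in 12 values on the first untreated day 1 array. That array enters these contrasts only through the shared estimate of the spread. The median changes stayed at 0.0297 in continued cells, 0.034 in withdrawn cells and -0.00293 for their difference. The cause was not tested for the other settings. Leaving out single arrays gave 6361 to 6967 higher and 4642 to 5321 lower calls, 205 to 279 and 104 to 177 of at least 2-fold, 99 to 178 schedule differences, 6842 to 7443 and 4964 to 5222 withdrawn calls, and 54 to 235 reference-channel calls. With the replicate block 8140 probes were higher, 6027 lower and 229 different between schedules. Of 769 changes of named probes under alternatives, 666 kept direction and call, 96 lost the call, 2 gained it and 5 changed sign. The sign changed with median centring at Nabp2 (-0.024), Ciao2b (-0.037), Cdc42bpa (-0.058), Z00015007-1 (-0.0038) and Z00046616-1 (-0.032). The fits on the 2-fold limit and on withdrawn cells were added after the data were seen. A random slide block could not be fitted, because slides are encoded in the groups. Dim probes are limited by the background.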
